A study of Homo sapiens with 18 samples.

Results

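Of the 56609 gene symbols counted in the series, 9 are the chemokine ligands described here, namely CCL3, CCL4, CCL5, CCL17, CCL22, CXCL8, CXCL9, CXCL10 and CXCL16. They were chosen by symbol as chemokines that activated B cells can release, and all 9 passed the filter of at least 10 counts summed over the libraries that left 31872 genes to be tested. The cells were HG3, MEC2 and PCL12, established EBV-positive cell lines of chronic lymphocytic leukemia (CLL), and their RNA was sequenced. In each line, 3 samples were stimulated for 4 h with 2.5 μg/mL of the oligonucleotide ODN-2006 (CpG), and 3 were left unstimulated (CT), which gave 18 libraries in 6 groups. In every replicate series of a line, 1 CpG sample stood beside 1 CT sample, so the log2 ratio of the 2 libraries with the same number could be taken in 9 pairs. The control groups carried EBV too, and 1 line stands for 1 genetic background. Nothing in the labels says how far the cultures of a line were kept apart, so p-values measure no more than the spread between these samples, which may be technical.

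Chemokines are small secreted proteins that guide leukocytes through G protein-coupled receptors. CCL3, CCL4 and CCL5 are inflammatory chemokines that draw T cells and monocytes, and CLL cells are known to release CCL3 and CCL4 when their antigen receptor is engaged. CCL17 and CCL22 bind CCR4 of helper and regulatory T cells, CXCL9 and CXCL10 bind CXCR3 and are classical interferon-induced genes, CXCL8 attracts neutrophils through CXCR1 and CXCR2, and CXCL16 is a membrane-bound ligand of CXCR6 that the protease ADAM10 can shed. ODN-2006 is a class B oligonucleotide with unmethylated CpG motifs that engages TLR9, an endosomal DNA receptor whose adaptor MYD88 leads to NF-κB and interferon regulatory factors. The comparisons ask which ligands differed between CpG-stimulated and unstimulated cells and how the lines differed without stimulus.

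The total count lay between 20382943 and 67308932 per library, and 3 counts were worth 0.0429 to 0.155 CPM (counts relative to the library total, scaled with TMM factors). Mitochondrial genes took 20.2% of the counts in CT replicate 2 of HG3 and 19.7% in CpG replicate 2 of MEC2, against 2.82% to 9.28% in the other libraries. Among the libraries labelled PCL12, replicates 2 and 3 stood apart, since 45 genes typical of MEC2, chosen for being low in replicate 1 of PCL12, had there 29.0% to 31.3% (medians per library) of what MEC2 had. The summed level of 8 B cell and CLL markers was 2572 to 5678 CPM in every library, although CD5 averaged 0.03 CPM in unstimulated MEC2 and 0.90 CPM in unstimulated PCL12 against 44.7 CPM in HG3. The 7 myeloid markers summed to 0.898 to 9.14 CPM, the 6 T cell markers to 35.8 to 141 CPM, in which TRAC (means of 50.9 to 108 CPM) took the main part, and the 4 stromal and endothelial markers to 6.64 to 89.7 CPM. Among the latter, COL1A1 met the DEG definition (given below) after CpG in MEC2, from 10.4 ± 0.88 to 24.7 ± 11.5 CPM (SD, n = 3; Log2FC 1.25 ± 0.40 SE, unadjusted p = 0.00478 in edgeR), and its adjusted p was 1 without and 0.00218 with the replicate block. The 5 NK markers summed to 37.2 to 132 CPM in MEC2, mainly through PRF1, and to 2.35 to 18.5 CPM in the other lines. The part of these lists in the results was not tested, and in bulk RNA fewer expressing cells and less RNA per cell cannot be told apart.

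After CpG, no ligand met the DEG definition (nominal P value under 0.01 and |Log2FC| ≥ 1, in edgeR's quasi-likelihood test with 1 mean per group) in HG3, MEC2 or PCL12, where 0.496%, 0.251% and 0.116% of all tested genes met it. With DESeq2 the count was 0 in each line as well, and with limma-voom it was 1, CXCL10 in PCL12. For the effect averaged over the lines, 0 of 9 ligands had an adjusted p (Benjamini-Hochberg) under 0.05 in edgeR, DESeq2 and limma-voom, beside 0.00941% of all genes in edgeR. At an unadjusted p under 0.05, CCL22 alone was counted, in MEC2, beside 2.46% of all genes, and in the average, beside 4.04%. HG3 had a median Log2FC of 0.29 over the ligands, MEC2 of 0.13 and PCL12 of 0.49, beside 0, 0 and 0.019 over all tested genes. Within pairs, the picture was more even for a few ligands. The CpG library was higher in 8 of 9 pairs for CXCL8, which held for at least 8 pairs in 1.69% of all genes, and in 7 of 9 pairs for CCL22 and CXCL10, which held for at least 7 pairs in 6.07% of all genes. For the other 6 ligands it was higher in 4 to 6 pairs. An exact sign-flip p under 0.05 over the 9 pairs was found for CXCL8 and CCL22 and for 4.44% of all genes. Without PCL12 replicates 2 and 3 it was found for CXCL8 and 3.84% of all genes, and without the pairs that hold a library rich in mitochondrial counts for CXCL8 and 5.25% of all genes.

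**Figure D1:**
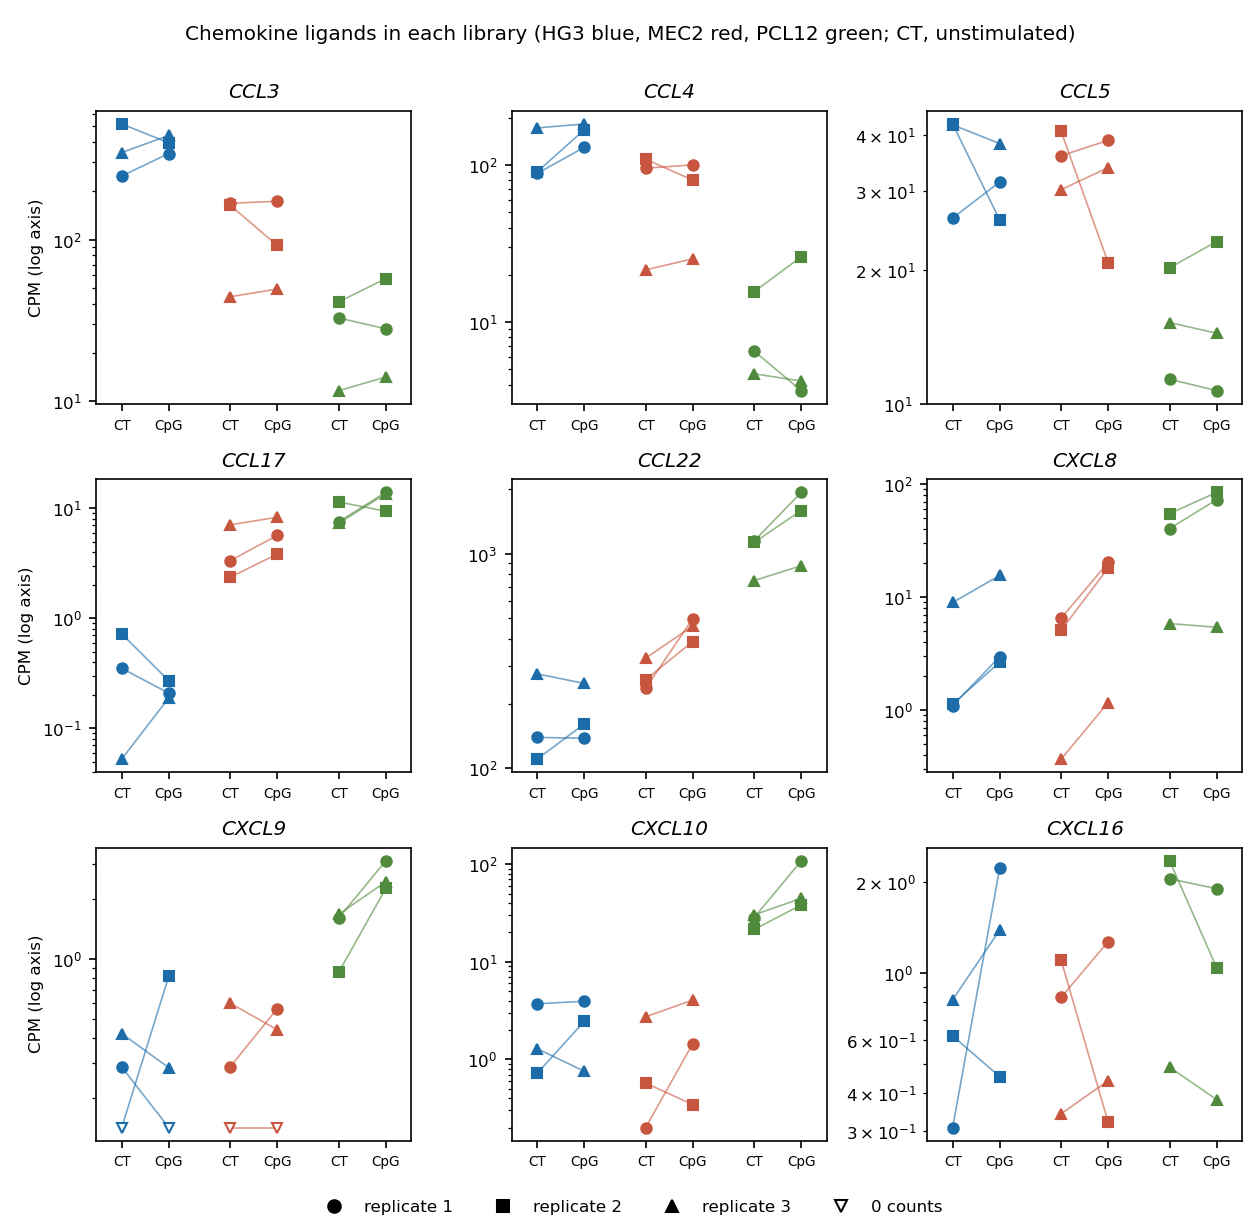
CPM (log axis) of each ligand in the 18 libraries, with CT (unstimulated) and CpG libraries of the same replicate joined by a line, in HG3 (blue), MEC2 (red) and PCL12 (green). A white triangle at the foot of a panel marks 0 counts. The lines of CXCL8 run upwards in 8 of 9 pairs, while replicate 3 lies apart from the others in each line.

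The sequences upstream of the ligands were read from RefSeq (build GRCh38.p14), whose promoter table held CCL3, CCL22, CXCL8, CXCL9 and CXCL10. CCL4, CCL5, CCL17 and CXCL16 were not matched. The 250 bases before the RefSeq start were searched on both strands for the NF-κB consensus, for the AP-1 motif TGANTCA, and for an interferon element made of GAAA and GAAA with 2 bases between them. Of 35116 promoters, 5.21%, 6.57% and 3.02% held a match to these motifs, respectively. The CXCL8 window had 1 AP-1 match, the same stretch read on both strands, from -137 to -131 relative to the start. No stretch of it matched the NF-κB consensus in full, and sites that depart from the consensus by any base were not counted. CCL22 had 1 NF-κB match from -185 to -176. CXCL10 had 2 NF-κB matches, from -177 to -168 and from -122 to -113, and 1 interferon element from -221 to -212. CXCL9 had an interferon element from -171 to -162, and the CCL3 window matched none of the motifs. The first 200 bases of the windows of the ligands with the most pairs higher after CpG are shown 5′ to 3′ with the matches in capitals, for CXCL8 at chr4:73740319-73740518 (plus strand), for CCL22 at chr16:57358533-57358732 (plus strand) and for CXCL10 at chr4:76023548-76023747 (minus strand). The matches are descriptions of letters, and binding was not measured.
CXCL8: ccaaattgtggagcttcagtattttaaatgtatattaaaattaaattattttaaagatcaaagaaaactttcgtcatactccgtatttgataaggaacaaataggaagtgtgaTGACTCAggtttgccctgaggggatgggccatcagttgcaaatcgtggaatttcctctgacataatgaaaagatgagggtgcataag
CCL22: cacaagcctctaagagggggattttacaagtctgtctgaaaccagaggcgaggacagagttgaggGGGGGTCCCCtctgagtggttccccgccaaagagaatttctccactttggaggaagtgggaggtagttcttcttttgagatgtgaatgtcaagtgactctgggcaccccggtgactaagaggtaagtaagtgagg
CXCL10: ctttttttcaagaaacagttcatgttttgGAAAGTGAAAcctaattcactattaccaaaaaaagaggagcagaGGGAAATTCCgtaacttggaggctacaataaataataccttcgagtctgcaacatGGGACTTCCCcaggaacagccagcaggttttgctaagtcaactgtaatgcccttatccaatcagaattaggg

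CXCL8 (chr4:73740519-73743716, plus strand), the neutrophil attractant known as interleukin-8, differed between cultures of a line more than between the libraries of a pair. In HG3, CT replicates 1, 2 and 3 measured 1.10, 1.13 and 9.00 CPM and the CpG replicates 2.98, 2.66 and 15.6 CPM. In MEC2, the values were 6.53, 5.10 and 0.37 CPM without and 20.3, 18.2 and 1.17 CPM with CpG. In PCL12, they were 40.6, 55.1 and 5.85 CPM without and 72.9, 84.7 and 5.43 CPM with CpG. Replicate 3 was thus the highest in HG3 and the lowest in MEC2 and PCL12, with and without CpG, and the stimulated and unstimulated groups overlapped in every line. The highest library of a group exceeded the lowest 5.85-fold to 17.6-fold.

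Because of this spread, the fold changes of CXCL8 had wide errors in the fit without pairs (Log2FC ± SE in edgeR), with 0.90 ± 1.38 for HG3, 1.73 ± 1.40 for MEC2 and 0.68 ± 1.35 for PCL12. Without single libraries, they ranged from -0.42 to 2.66 in HG3 (without CpG or CT replicate 3), from 1.19 to 2.27 in MEC2 (without CT or CpG replicate 3) and from 0.18 to 1.23 in PCL12 (without CT replicate 3 or 2). The ratios within pairs lay closer together. On the log2 scale they were 1.39, 1.19 and 0.79 for HG3, 1.63, 1.82 and 1.52 for MEC2, and 0.84, 0.62 and -0.11 for PCL12, where the last is replicate 3. Over the 9 pairs, the mean log2 ratio was 1.08 ± 0.60 (SD), with a two-sided p of 0.00781 in an exact sign-flip permutation test whose smallest p is 0.00391. Without PCL12 replicates 2 and 3, the mean of 7 pairs was 1.31, all of them positive (exact p = 0.0156, the smallest that 7 pairs allow). The 9 ligands were tested in this way, and these p-values are not adjusted.

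With the replicate number as a block in edgeR, the Log2FC of CXCL8 was 1.12 ± 0.28 (SE) in HG3 (adjusted p = 0.0407) and 1.72 ± 0.28 in MEC2 (adjusted p = 5.71e-06), and it was 0.47 ± 0.25 in PCL12 (adjusted p = 1). In HG3, this was the only 1 of 12 alternative fits with an adjusted p under 0.05. For CCL3, the SE of the blocked fit was 0.21 in each line. For the average of CXCL10 it was 0.17, while the 9 ratios spread from -0.73 to 2.55. The p-values of the blocked fit thus rest more on a spread shared over genes than on the pairs of each ligand. In this blocked fit, 0.135%, 0.333% and 0.0471% of all genes passed an adjusted p of 0.05 in HG3, MEC2 and PCL12, and of the ligands CXCL8 passed it in HG3 and MEC2 and none in PCL12. The DEG definition was met with the block by CXCL8 in HG3 and MEC2 and by CXCL10 in PCL12, beside 0.731%, 0.555% and 0.242% of all genes. For the average over lines, CXCL8, CXCL10 and CCL22 had an adjusted p under 0.05 with the block, with 0.555% of all genes, and the adjusted p of CXCL8 was 6.35e-09. The test within limma-voom gave larger p-values with the same block, with an adjusted p of 0.0227 for the average of CXCL8, 0.172 in MEC2 and 0.991 in HG3. For the average of CXCL10, the adjusted p with the block was 0.00652 in edgeR and 0.991 in limma-voom. The CpG effects of CXCL8 in PCL12 and MEC2 differed by a Log2FC of -1.05 ± 1.92 without the block (adjusted p = 1) and of -1.25 ± 0.38 with it (unadjusted p = 0.000904, adjusted p = 1).

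**Figure D2:**
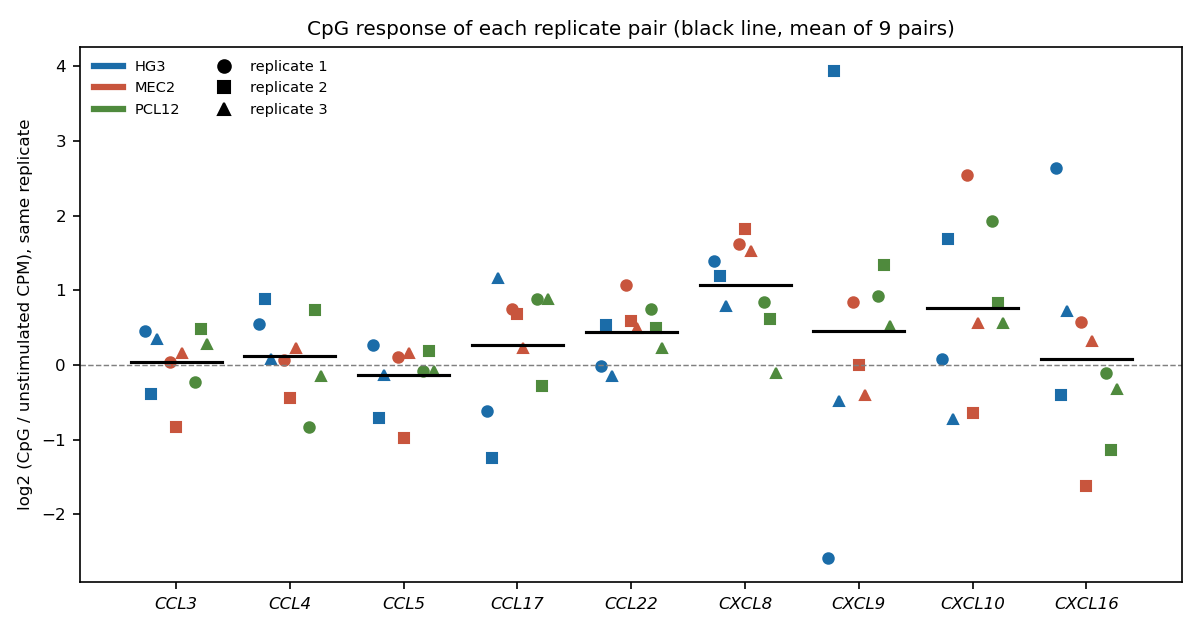
Log2 ratio of CpG over unstimulated CPM (prior count 2) for each of the 9 replicate pairs, by ligand, with colours for lines, symbols for replicate numbers and a black line at the mean of the 9 pairs. CXCL8 had the highest mean (1.08) with 1 pair below 0, and CXCL9, with few counts in HG3 and MEC2, spread from -2.58 to 3.93.

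CCL22 (chr16:57358783-57366189, plus strand), a CCR4 ligand that attracts regulatory T cells, had higher levels in the CpG than in the CT libraries of MEC2 without overlap. In MEC2, the CT libraries measured 236, 259 and 326 CPM and the CpG libraries 498, 390 and 460 CPM. That every CpG library lay above every CT library held for this ligand alone in MEC2, and for 2.52% of all genes. The Log2FC in MEC2 was 0.72 ± 0.32 (SE), with an unadjusted p of 0.0345 and an adjusted p of 1 in edgeR. In PCL12, CCL22 measured 1147, 1128 and 750 CPM without and 1928, 1588 and 879 CPM with CpG, higher with CpG in each of the 3 pairs although the groups overlapped. In HG3, the values were 139, 110 and 276 CPM without and 138, 161 and 249 CPM with CpG, and a single pair, replicate 2, had a ratio above 0 (0.54), whose unstimulated library was rich in mitochondrial counts. The mean log2 ratio over the 9 pairs was 0.45 ± 0.38 (SD; exact sign-flip p = 0.0156), and it was 0.47 with an exact p of 0.0625 over the 7 pairs without PCL12 replicates 2 and 3. With the block, the average over lines had an adjusted p of 0.0471 in edgeR and of 0.0885 in limma-voom, and of 0.322 in edgeR without PCL12 replicates 2 and 3.

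CXCL10 (chr4:76021118-76023497, minus strand), the interferon-induced ligand of CXCR3, was low in HG3 and MEC2 and had values above 20 CPM in PCL12 alone. In PCL12, the CT libraries measured 28.4, 21.5 and 30.3 CPM and the CpG libraries 108, 38.3 and 44.7 CPM, so that the groups did not overlap. In PCL12 this held for CXCL10 and CXCL9 of the ligands and for 2.53% of all genes, and in HG3 for none of the ligands and 2.14% of all genes. The CpG library of replicate 1 stood far above the others, and the ratios of the pairs were 1.93, 0.83 and 0.56 on the log2 scale. The Log2FC of CXCL10 in PCL12 was 1.26 ± 0.91 (SE, unadjusted p = 0.193) in edgeR, 1.11 ± 0.27 with the block (unadjusted p = 3.26e-05, adjusted p = 0.0595), and 1.93 in the single pair of replicate 1 (unadjusted p = 0.326, with the spread of the other groups), while it was 0.63 without CpG replicate 1. In HG3, CXCL10 measured 3.71, 0.72 and 1.29 CPM without and 3.95, 2.45 and 0.76 CPM with CpG. In MEC2, it measured 0.20, 0.57 and 2.74 CPM without and 1.45, 0.345 and 4.06 CPM with CpG, and neither line had ratios of 1 sign with libraries paired by number. Over the 9 pairs, the mean log2 ratio was 0.76 ± 1.13 (SD; exact sign-flip p = 0.0820).

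CXCL9, the second CXCR3 ligand, which lies next to CXCL10 at chr4:76001275-76007509 (minus strand), had few counts. Replicates 1, 2 and 3 had 13, 0 and 16 counts without and 0, 27 and 9 with CpG in HG3, and 10, 0 and 21 counts without and 19, 0 and 9 with CpG in MEC2. A count of 0 allows up to 3 counts, or up to 0.155 CPM in the library where they weigh most. In PCL12, CXCL9 measured 1.60, 0.86 and 1.67 CPM without and 3.10, 2.25 and 2.44 CPM with CpG, all 3 above, with a Log2FC of 0.91 ± 1.19 (SE, adjusted p = 1 in edgeR).

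CCL3 (chr17:36088256-36090169, minus strand) and CCL4 (chr17:36103827-36105621, plus strand), neighbouring genes for inflammatory chemokines, had no common direction after CpG. CCL3 measured 247, 518 and 345 CPM without and 340, 395 and 439 CPM with CpG in HG3. In MEC2 it measured 168, 163 and 44.3 CPM without and 172, 91.9 and 49.4 CPM with CpG, and in PCL12 32.8, 41.2 and 11.7 CPM without and 28.1, 57.4 and 14.1 CPM with CpG. The CT and CpG libraries overlapped in each line, and the mean log2 ratio over 9 pairs was 0.036 ± 0.44 (SD; exact sign-flip p = 0.801). CCL4 measured 88.4, 90.4 and 172 CPM without and 130, 168 and 183 CPM with CpG in HG3, where all 3 pairs had ratios above 0 (0.55, 0.89 and 0.085). In MEC2 and PCL12 the signs were mixed, and over the 9 pairs the mean log2 ratio of CCL4 was 0.13 ± 0.55 (SD; exact sign-flip p = 0.496).

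Both genes have near-identical copies on the same chromosome, so part of their reads may be split. CCL3L3 held 4.53% to 17.1% (median 10.2%) of the summed counts of CCL3 and CCL3L3, and CCL4L2 held 9.69% to 32.1% (median 16.0%) of those of CCL4 and CCL4L2. After CpG, the Log2FC of CCL3L3 was 0.16 ± 0.88 (SE) in HG3, -0.19 ± 0.89 in MEC2 and -0.26 ± 0.91 in PCL12, with 2 of 9 pairs higher. That of CCL4L2 was 0.47 ± 0.77, -0.12 ± 0.78 and 0.23 ± 0.82 in the same order, with 6 of 9 pairs higher, and neither copy met the DEG definition in any line. The copies CCL3L1 and CCL4L1 were not among the counted gene symbols, and where their reads were counted was not tested.

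CCL5 (chr17:35871491-35880793, minus strand), an inflammatory chemokine that T cells also make, overlapped between CT and CpG in every line. In HG3 it measured 26.1, 42.4 and 42.2 CPM without and 31.4, 25.8 and 38.3 CPM with CpG, in MEC2 36.0, 40.8 and 30.2 CPM without and 39.0, 20.7 and 33.9 CPM with CpG, and in PCL12 11.3, 20.2 and 15.2 CPM without and 10.7, 23.1 and 14.4 CPM with CpG. Its mean log2 ratio was -0.14 ± 0.43 (SD; exact sign-flip p = 0.426), with 4 of 9 pairs higher after CpG, and the lowest ratio, -0.98, came from the MEC2 pair whose CpG library was rich in mitochondrial counts. CCL17 (chr16:57404767-57416063, plus strand), the other CCR4 ligand and neighbour of CCL22, had 2 to 16 counts per HG3 library. In MEC2 it measured 3.35, 2.37 and 7.09 CPM without and 5.68, 3.84 and 8.31 CPM with CpG, higher in each of the 3 pairs. In PCL12 it measured 7.57, 11.4 and 7.31 CPM without and 14.0, 9.41 and 13.6 CPM with CpG. The Log2FC was 0.47 ± 0.53 (SE) in MEC2 and 0.49 ± 0.53 in PCL12, and both had an adjusted p of 1 in edgeR. CXCL16 (chr17:4733533-4739928, minus strand) had 9 to 133 counts per library and at most 2.35 CPM, and its 9 ratios spread from -1.62 to 2.64 on the log2 scale (exact sign-flip p = 0.859).

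No ligand met the DEG definition for a difference of CpG effects between lines, which 0.543% of all genes met for MEC2 against HG3, 0.489% for PCL12 against HG3 and 0.286% for PCL12 against MEC2. The SE of these differences was 0.44 to 1.94 among the ligands for MEC2 against HG3. With the replicate block, CXCL8 met the definition for PCL12 against MEC2 (-1.25 ± 0.38, unadjusted p = 0.000904, adjusted p = 1 in edgeR), beside 0.336% of all genes.

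Without stimulation, several ligands differed between the lines. HG3 had the highest means of CCL3 and CCL4, and PCL12 had the highest means of CCL17, CCL22 and CXCL10. PCL12 differed from HG3 at an adjusted p under 0.05 in 6 of 9 ligands, beside 9.44% of all genes, PCL12 from MEC2 in 3 ligands, beside 2.05%, and MEC2 from HG3 in 1 ligand, CCL17, beside 9.78% of all genes. The replicate numbers lie within a line and pair nothing between lines. The share of all genes whose libraries did not overlap between lines was not counted, so overlaps between lines are given below as descriptions.

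**Figure D3:**
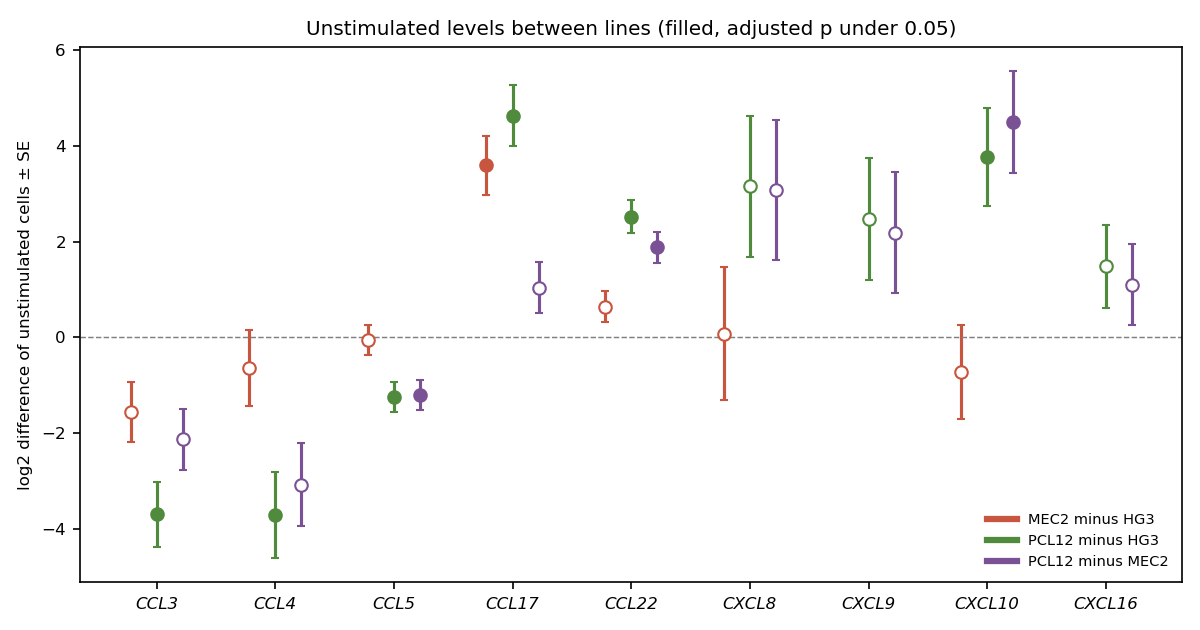
Log2 difference of unstimulated levels (points, bars ± SE, edgeR) between the lines for each ligand, with filled points at an adjusted p under 0.05. CCL3 and CCL4 lie below 0 and CCL17, CCL22 and CXCL10 above 0 in PCL12 minus HG3, and differences with means below 1 CPM in both lines are left out.

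CCL17 was 3.59 ± 0.62 (Log2FC ± SE) higher in unstimulated MEC2 than in HG3 (adjusted p = 0.000185 in edgeR) and 4.63 ± 0.64 higher in PCL12 than in HG3 (adjusted p = 1.05e-05), and every library of MEC2 and PCL12 lay above every library of HG3. Between PCL12 and MEC2, it differed by 1.03 ± 0.53 (adjusted p = 0.479). CCL22 followed the same order of means, with 175 ± 88.1 CPM (SD, n = 3) in HG3, 274 ± 46.8 CPM in MEC2 and 1008 ± 224 CPM in PCL12. It was 2.52 ± 0.34 (Log2FC ± SE) higher in PCL12 than in HG3 and 1.88 ± 0.33 higher than in MEC2, with adjusted p-values of 7.03e-06 and 0.00114 in edgeR, and MEC2 and HG3 overlapped (0.64 ± 0.32, adjusted p = 0.241). Without PCL12 replicates 2 and 3, 1 unstimulated PCL12 library remained, whose spread was assumed to be that of the other groups, and its CCL22 differed by 2.73 from HG3 and by 2.09 from MEC2, with adjusted p-values of 0.000116 and 0.00492 under that assumption.

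CXCL10 was 3.77 ± 1.02 (Log2FC ± SE) higher in PCL12 than in HG3 and 4.49 ± 1.07 higher than in MEC2, with adjusted p-values of 0.0333 and 0.0487 in edgeR and no overlap of the libraries. With the single PCL12 library of replicate 1, the differences were 3.88 and 4.59 with adjusted p-values of 0.208 and 0.203. The call against HG3 was also lost when HG3 CT replicate 2 or 3 or any 1 CT library of PCL12 was left out, with adjusted p-values from 0.0601 to 0.122, and that against MEC2 without MEC2 CT replicate 1 or 2 or any 1 CT library of PCL12, with adjusted p-values from 0.0925 to 0.226. The call against HG3 was lost as well without the libraries rich in mitochondrial counts (0.0697), and that against MEC2 with library totals (0.0515) and with lines fitted alone (0.0710). Unstimulated CXCL8 averaged 3.74 ± 4.55 CPM in HG3, 4.00 ± 3.23 CPM in MEC2 and 33.8 ± 25.3 CPM in PCL12 (SD, n = 3), and the lines overlapped (adjusted p = 0.235 for PCL12 against HG3). CXCL9 and CXCL16 did not pass the test between any lines.

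In the opposite direction, CCL3 averaged 370 ± 137 CPM (SD, n = 3) in unstimulated HG3, 125 ± 69.8 CPM in MEC2 and 28.5 ± 15.2 CPM in PCL12, with no overlap between neighbours in this order. The difference of PCL12 from HG3 was -3.70 ± 0.68 (Log2FC ± SE, adjusted p = 0.00240 in edgeR), while those of MEC2 from HG3 (-1.57 ± 0.63) and of PCL12 from MEC2 (-2.13 ± 0.64) had adjusted p-values of 0.158 and 0.142. CCL4 averaged 117 ± 47.9 CPM in HG3, 75.3 ± 47.1 CPM in MEC2 and 8.95 ± 5.85 CPM in PCL12, where HG3 and MEC2 overlapped. PCL12 differed from HG3 by -3.71 ± 0.89 (adjusted p = 0.0180), a call that was lost without HG3 CT replicate 3 (0.0542), PCL12 CT replicate 1 (0.0785) or PCL12 CT replicate 3 (0.0836). The difference from MEC2, -3.08 ± 0.87, had an adjusted p of 0.120. CCL5 was -1.24 ± 0.32 in PCL12 against HG3 and -1.19 ± 0.32 against MEC2, with adjusted p-values of 0.00993 and 0.0424. The former rose to 0.0687 without PCL12 CT replicate 1, and the latter to 0.0517 to 0.284 without any 1 CT library of MEC2 or without PCL12 CT replicate 1 or 3, to 0.0668 with library totals and to 0.0515 in limma-voom. The latter call was also lost without PCL12 replicates 2 and 3, which left 1 unstimulated PCL12 library.

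In PCL12 replicates 2 and 3, genes typical of MEC2 reached 29.0% to 31.3% of their MEC2 level, and their part in the levels of the ligands was not tested. Their low level in replicate 1 follows from how they were chosen. In turn, 32 genes chosen as high in PCL12 replicate 1 and low in MEC2 had 67.7% to 79.5% of their replicate 1 level in replicates 2 and 3. The MEC2 level of the same replicate number was multiplied by the median share of MEC2 genes in each PCL12 library to give the CPM that such a share would bring. The shared number only picks a library here, and the choice decides the value, since unstimulated MEC2 ranged from 21.5 to 109 CPM in CCL4 and from 44.3 to 168 CPM in CCL3. For CCL4, this gave 33.8 and 6.74 CPM beside 15.6 and 4.69 CPM measured in CT replicates 2 and 3, and 25.0 and 7.35 CPM beside 26.1 and 4.21 CPM measured in the CpG libraries. For CCL3, it gave 50.6 and 13.9 CPM beside 41.2 and 11.7 CPM in the CT libraries, and 28.6 and 14.4 CPM beside 57.4 and 14.1 CPM in the CpG libraries. For CCL5, it gave 12.7 and 9.46 CPM beside 20.2 and 15.2 CPM in the CT libraries. For CCL22, CXCL8 and CXCL10, it gave at most 134, 5.67 and 1.18 CPM, beside at least 750, 5.43 and 21.5 CPM measured, and in no library more than was measured. In replicate 1 of PCL12, where the MEC2 genes, chosen as low there, reached 2.26% to 2.36%, the CT and CpG libraries had 32.8 and 28.1 CPM of CCL3, 6.54 and 3.66 CPM of CCL4 and 11.3 and 10.7 CPM of CCL5. This single unstimulated library of PCL12 differed from HG3 by a Log2FC of -3.48 in CCL3, -4.15 in CCL4 and -1.68 in CCL5, with adjusted p-values of 0.0179, 0.0410 and 0.0402 in edgeR that take its spread from the other groups.

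**Figure D4:**
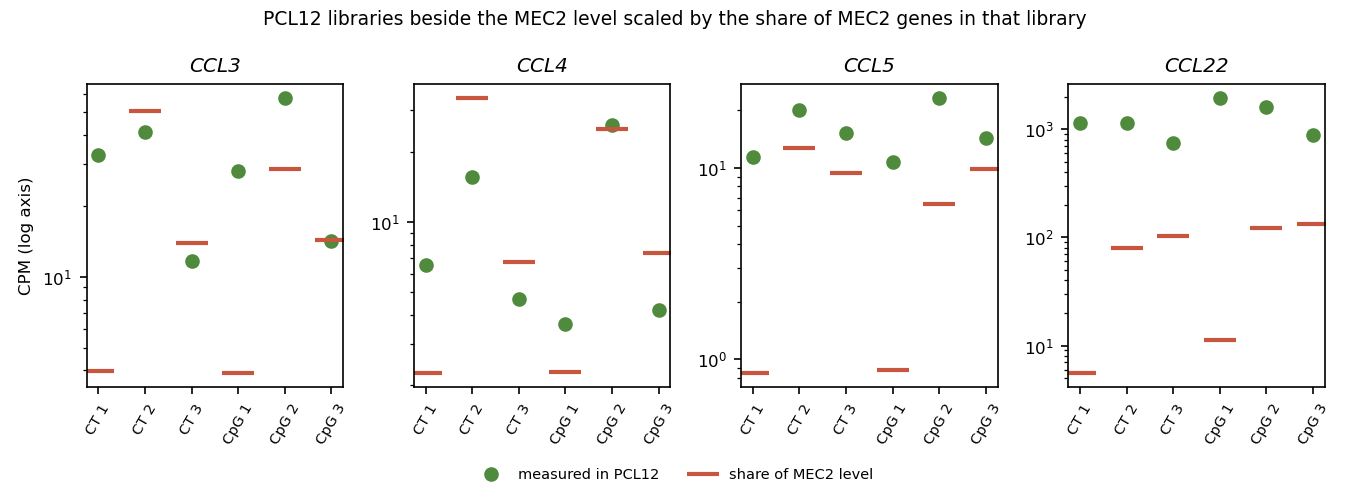
CPM (log axis) of 4 ligands measured in the 6 PCL12 libraries (green points) and the MEC2 level of the same replicate and treatment scaled by the share of MEC2 genes in that library (red bars). In replicates 2 and 3 the bars of CCL3 and CCL4 lie above the points except in CpG replicate 2, and those of CCL5 and CCL22 lie below the points throughout.

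Across the 18 libraries, centred on the mean of each line, CXCL8 varied with CCL3 (Pearson r = 0.75) and CCL4 (0.74), and CCL3 with CCL4 (0.82). The libraries of a line include both treatments and the replicate series, so these are descriptions with no p. In MEC2 the r of CCL3 with CCL4 was 0.96 and that of CXCL8 with CCL4 0.89, with replicate 3 the lowest in all of them, and in HG3 the r of CCL3 with CCL4 was 0.21. The NK markers were also lowest in replicate 3 of MEC2, with 37.2 CPM (CT) and 39.8 CPM (CpG) against 67.8 to 132 CPM in the other MEC2 libraries, and their part was not tested. CXCL8 and CCL22 had an r of 0.61, which was 0.92 in HG3, 0.13 in MEC2 and 0.88 in PCL12. The r of CXCL10 was -0.51 with CCL3 (-0.09 within PCL12) and -0.56 with CCL4 (-0.21 within HG3). Over the same libraries, the genes most like CXCL8 were INSIG1 (0.97), TMEM43 (0.96) and OPTN (0.95), and those most like CCL22 were CD44 (0.95), CCR7 (0.90) and DTX4 (0.89). For CCL3 they were RGS1 (0.93), MT1E (0.93) and CST7 (0.92), for CCL4 SMYD5 (0.90), its copy CCL4L2 (0.89) and DUSP2 (0.88), and for CCL5 IFI6 (0.88) and SPINT2 (0.84). For CCL17 they were MRPL32 (0.88), FMC1 (0.86) and SMIM30 (0.86), for CXCL10 AL355338.1 (0.85), FAM86DP (0.84) and NFE2L3 (0.84), and for CXCL16 LBH (0.81), LIPG (0.79) and HIST3H2A (0.79).

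**Figure D5:**
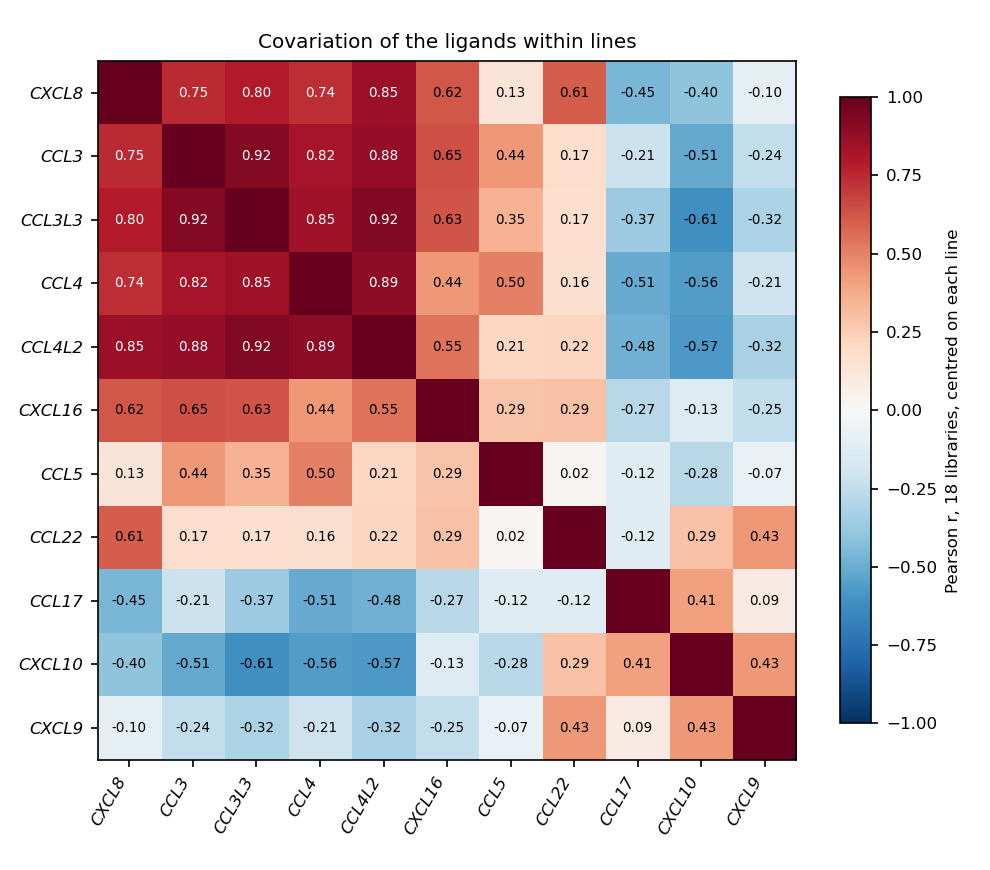
Pearson r of log2 CPM between the ligands and the 2 copies over 18 libraries centred on each line, from -1 (blue) to 1 (red). CXCL8, CCL3, CCL4 and the copies form a block with r from 0.74 to 0.92, and CXCL10 has negative r with each of them.

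Of the pathway from TLR9 to these ligands, all 19 listed genes were tested. NFKBIZ, which encodes the nuclear IκB protein IκBζ, rose from 28.5 ± 7.16 to 130 ± 38.3 CPM in MEC2 (SD, n = 3; Log2FC 2.20 ± 0.33 SE, adjusted p = 0.0154 in edgeR) and met the DEG definition in PCL12 (1.71 ± 0.33, unadjusted p = 1.70e-05). In HG3 it averaged 148 ± 68.8 CPM without and 234 ± 51.9 CPM with CpG (SD, n = 3; Log2FC 0.66 ± 0.32 SE, unadjusted p = 0.0490). Unstimulated MEC2 and PCL12 had less NFKBIZ than HG3 at an adjusted p under 0.05. The difference of the CpG effect in MEC2 from that in HG3 met the DEG definition (1.54 ± 0.45, unadjusted p = 0.00208). NFKB2, an NF-κB subunit, met it in MEC2 (1.12 ± 0.34, unadjusted p = 0.00287), and the other 17 genes did not meet it in any line. TLR9, the receptor of the stimulus, had 0 to 10 counts per library and group means of at most 0.115 CPM, so that a change of it was not detectable at this depth. With the replicate block, NFKBIZ passed the adjusted p in MEC2 and PCL12, NFKB2, REL and RELB passed it in MEC2, and NFKB1, NFKB2, REL, RELB, NFKBIZ and TNFAIP3 passed it in the average over lines, all of them higher with CpG.

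Of 35 other chemokine ligands, 24 were tested, and CX3CL1, a membrane-bound ligand of CX3CR1, was the one that met the DEG definition after CpG. In MEC2 its mean level was 0.42 ± 0.27 CPM without and 1.37 ± 0.84 CPM with CpG (SD, n = 3; Log2FC 1.68 ± 0.53 SE, unadjusted p = 0.00471, adjusted p = 1). With the replicate block, the adjusted p of CX3CL1 was 0.00376 in MEC2 (Log2FC 1.55) and 0.00726 for the average over lines (0.74), and the difference of MEC2 from HG3 met the DEG definition (unadjusted p = 0.00107). In PCL12 CX3CL1 averaged 51.0 ± 18.5 CPM without and 79.9 ± 41.9 CPM with CpG, and in HG3 1.03 ± 0.19 and 1.08 ± 0.50 CPM. CCL20, the ligand of CCR6, averaged 97.6 ± 47.2 CPM in unstimulated HG3, 1.78 ± 0.12 CPM in MEC2 and 4.63 ± 1.36 CPM in PCL12, and XCL1, the ligand of XCR1, 71.5 ± 50.9, 5.76 ± 0.80 and 2.55 ± 0.67 CPM. CCL18, CCL25, CCL28, CXCL1, CXCL2, CXCL12 and XCL2 reached a mean of 1 CPM in at least 1 group, and all their group means were below 5 CPM.

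Of 10 receptors of the ligands, 9 were tested, and CCR1, the receptor of CCL3 and CCL5, was the one that met the DEG definition. In MEC2 its mean fell from 5.03 ± 1.63 to 1.10 ± 0.64 CPM (SD, n = 3; Log2FC -2.19 ± 0.69 SE, unadjusted p = 0.00377, adjusted p = 1), and the difference of this effect from that in HG3 met the definition too (-2.72 ± 0.97, unadjusted p = 0.00935). With the replicate block, the adjusted p of CCR1 was 0.00624 in MEC2 (Log2FC -2.29) and 0.0230 for the average over lines (-1.14), and CCR1 met the DEG definition in PCL12 too (-1.49, unadjusted p = 0.00206). CXCR3, the receptor of CXCL9 and CXCL10, averaged 16.3 ± 3.63 CPM in unstimulated HG3, 58.4 ± 13.3 CPM in MEC2 and 26.4 ± 4.97 CPM in PCL12. CCR4 averaged 4.48 ± 1.58 CPM without and 7.07 ± 1.00 CPM with CpG in MEC2, and ACKR1, a decoy receptor, exceeded a mean of 1 CPM in unstimulated HG3 alone (1.23 ± 1.07 CPM). The 4 genes that process the ligands, ADAM10, ADAM17, DPP4 and MMP9, did not meet the DEG definition in any line.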

How the data were processed

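Counts of 18 libraries were used as deposited by the authors, whole-number gene counts without normalization per the labels, and all columns were assigned by the labels. The submitters' processing notes name FastQC, MultiQC, Trimmomatic, STAR, featureCounts and hg38, while versions and duplicate handling are not given in the sources used here. Intervals and limits from depth cover counting error only. The paper names a Qiagen kit and a stranded protocol, the labels Promega and Lexogen QuantSeq kits.

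Genes with at least 10 counts in all (31872 of 42248 with any count) were fitted in edgeR 4.0.16 (R 4.3.3) with TMM factors, 1 mean per group, robust dispersions for its quasi-likelihood test (12 residual degrees of freedom) and Benjamini-Hochberg adjustment over all tested genes. The DEG definition follows the methods of the paper. Log2 ratios of pairs used a prior count of 2 and two-sided exact sign-flip tests. Alternatives were DESeq2 1.42.0, limma-voom (limma 3.58.1), the replicate block, RLE or total-count scaling, other filters, lines fitted alone and libraries left out. The tests were checked on simulated data. The 9 members, gene lists and marker lists were chosen with earlier results of these data known. The text names every member and copy, ligands and receptors with a mean of 1 CPM in a group, list genes past a threshold, and the 3 genes most correlated with a member, of which 1 is not reported here. Positions are GENCODE v44 on GRCh38.

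The series text describes 1 stimulated and 1 unstimulated sample per replicate, which pairs the libraries within a line. After removing group means, same-numbered libraries correlated over 13991 genes of at least 1 CPM with r of 0.259, 0.212 and 0.480 (HG3), 0.189, -0.0133 and 0.611 (MEC2), and 0.607, 0.494 and 0.515 (PCL12).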

Additional observations from a re-analysis of the deposited data

How the results depend on the processing

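The counts of ligands past the DEG definition after CpG, 0 in each line, changed in some alternatives. With the replicate block in edgeR, the count was 1 in each line, CXCL8 in HG3 and MEC2 and CXCL10 in PCL12. It was 1 in each line also with the block and without PCL12 replicates 2 and 3, a choice made after seeing the data, where PCL12 held a single pair and its value is 1 library against 1 with the spread of the other lines. Each value without PCL12 replicates 2 and 3 rests on 1 library per PCL12 group. The count with the block in limma-voom was 1 in MEC2 and in PCL12. Without a filter on low counts it was also 1 in MEC2 and PCL12, and CXCL10 in PCL12 counted as 1 with limma-voom and with each line fitted alone. For the effect averaged over lines the count of 0 became 3 with the block in edgeR, 2 with the block and without PCL12 replicates 2 and 3, 1 with the block in limma-voom and 1 without a filter. For differences of CpG effects, the count of 0 became 1 for PCL12 against MEC2 with the block (CXCL8), and 1 for PCL12 against HG3 with the block and without PCL12 replicates 2 and 3 (CCL4).

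For unstimulated MEC2 against HG3, 2 ligands in place of 1 passed the adjusted p with DESeq2, limma-voom, no filter, lines fitted alone or without PCL12 replicates 2 and 3, the second being CCL3. For PCL12 against MEC2, 3 became 5 with DESeq2, 6 without a filter, 1 with library totals and 1 without PCL12 replicates 2 and 3. With each library left out in turn, these counts ranged from 1 to 2 for MEC2 against HG3, from 3 to 6 for PCL12 against HG3 and from 1 to 3 for PCL12 against MEC2, and the counts after CpG stayed at 0. For the alternatives of these fits, the share of all genes was counted with the replicate block in edgeR alone. The other counts of ligands thus have no share beside them. Without a filter, the adjusted p of CCL3 in PCL12 against HG3 was 5.51e-31 in edgeR, against 0.00240 in the main fit. The comparisons between lines were not run with the block, whose replicate numbers lie within a line.

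Without the libraries rich in mitochondrial counts, the Log2FC of CCL22 in HG3 turned to -0.18 and that of CXCL10 in HG3 to -0.068. With single libraries left out, the Log2FC in HG3 ranged from -0.23 to 0.55 for CCL22, from -0.42 to 2.66 for CXCL8 and from -0.29 to 1.24 for CXCL10, and that of CXCL10 in MEC2 from -0.42 to 2.33. In PCL12 the limits were 0.63 and 1.52 for CXCL10 and 0.28 and 0.81 for CCL22, and for CCL22 in MEC2 they were 0.60 and 0.86. Over the replicate pairs, 2 ligands had an exact sign-flip p under 0.05, and 1 (CXCL8) did without PCL12 replicates 2 and 3 and without the pairs holding a library rich in mitochondrial counts, where the mean log2 ratio of CCL22 was 0.47 and 0.41. The cause of these changes was not tested. In MEC2, CpG replicate 1 correlated most with CT replicate 2 (0.449) and CpG replicate 2 most with CT replicate 1 (0.388, against -0.0133 with its own number). Whether these numbers are crossed was not tested, and the ratios of single MEC2 pairs, those of CXCL10 among them, and the fits with the block rest on them. Ligands under 1 CPM rest on few counts, and 3 libraries per group left wide errors where cultures differed, as for CXCL8.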
